A study of Mus musculus with 7 samples.

Results

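AP-1 is a transcription factor assembled from pairs of basic leucine zipper (bZIP) proteins, and the levels of 10 of its genes were followed in lesional mouse skin. The genes were taken by symbol from the deposited array table: Fos, Fosb, Fosl1 and Fosl2 of the Fos family, Jun, Junb and Jund of the Jun family, and Atf3, Batf and Maff of related families. All 10 were found, each with 1 probe set, among 23185 named genes and 25206 probe sets in all. The arrays held 4 ox40l-/- samples (knockout) and 3 ox40l+/+ samples (wild type), all from male C57BL/6 mice aged 9 weeks whose skin had been injected with bleomycin for 3 weeks. Ox40l, or Tnfsf4, encodes a costimulatory ligand whose receptor is carried by activated T cells, and the comparison asks how its absence goes with gene expression in bleomycin-treated skin. Both genotypes received bleomycin and no untreated skin was measured, so the response of AP-1 genes to bleomycin was not compared. The labels do not name the knockout allele and do not say whether each sample is a different animal, so the p-values rest on the spread among 7 samples, part of which may be technical. The sample codes share a number, whose meaning is not stated, between knockout replicates 1 and 2, between wild type replicates 1 and 2, and between knockout replicate 3 and wild type replicate 3.

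Fos proteins bind DNA only as partners of Jun proteins, whereas Jun proteins can also pair with each other. Fos, Fosb, Jun, Junb and Atf3 are immediate early or stress-induced genes whose transcripts appear quickly after growth factor, cytokine or damage signals relayed by MAP kinases. In skin, AP-1 proteins are known for roles in keratinocyte differentiation, wound repair and inflammation, and mice that overexpress Fosl2 develop fibrosis. Batf and Maff lack the transactivation domain of Fos and Jun, and Batf pairs with Jun proteins in lymphocytes and myeloid cells.

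AP-1 binds the sequence TGACTCA, and the closely related Creb and Atf dimers bind TGACGTCA. RefSeq promoter windows of build GRCm38.p6, from 250 bases before to 50 bases after the start, were available for 9 of the 10 genes, and Maff had several. Those of Fos, the dimer partner most studied, and of Fosl2, Jun and Junb, whose values are described in most detail below, are shown 5′ to 3′ on the gene's strand, with capitals marking TGACATCA or TGACG on either strand.
Fos (chr12:85473640-85473939, plus strand): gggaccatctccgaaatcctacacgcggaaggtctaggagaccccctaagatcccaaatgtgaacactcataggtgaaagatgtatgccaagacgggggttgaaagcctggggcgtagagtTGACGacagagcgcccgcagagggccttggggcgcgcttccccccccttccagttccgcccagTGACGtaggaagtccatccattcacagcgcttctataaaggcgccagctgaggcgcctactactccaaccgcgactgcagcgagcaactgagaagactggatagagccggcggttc
Fosl2 (chr5:32136222-32136521, plus strand): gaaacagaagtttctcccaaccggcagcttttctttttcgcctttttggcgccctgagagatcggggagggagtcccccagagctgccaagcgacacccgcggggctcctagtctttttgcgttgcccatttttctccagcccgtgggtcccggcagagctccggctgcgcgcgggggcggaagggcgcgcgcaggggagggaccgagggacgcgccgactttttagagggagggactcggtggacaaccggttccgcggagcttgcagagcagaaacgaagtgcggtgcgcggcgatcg
Jun (chr4:95052173-95052472, minus strand): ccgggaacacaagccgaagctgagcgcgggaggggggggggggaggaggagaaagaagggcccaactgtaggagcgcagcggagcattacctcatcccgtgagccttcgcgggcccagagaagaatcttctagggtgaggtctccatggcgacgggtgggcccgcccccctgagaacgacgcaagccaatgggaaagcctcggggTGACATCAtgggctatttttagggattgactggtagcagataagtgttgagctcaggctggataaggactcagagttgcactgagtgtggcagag
Junb (chr8:84978699-84978998, minus strand): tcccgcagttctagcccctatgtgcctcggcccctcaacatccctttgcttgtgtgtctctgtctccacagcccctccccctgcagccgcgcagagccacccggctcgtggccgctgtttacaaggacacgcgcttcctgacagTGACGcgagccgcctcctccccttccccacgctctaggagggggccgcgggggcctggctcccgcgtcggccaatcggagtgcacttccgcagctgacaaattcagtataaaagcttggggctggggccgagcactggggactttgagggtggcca
The full AP-1 sequence TGACTCA was in the windows of 0 of these 9 genes, against 5.2% of all 32851 windows of this length. TGACGTCA was in those of Maff alone (1 of 9 genes), against 1.79% of all windows. TGACATCA, which differs from TGACGTCA at 1 base, was in those of Jun and Maff, against 3.62% of all windows. In Jun it lay 45 to 38 bases before the start. TGACG, the first bases of TGACGTCA and therefore counted within it, was in those of Fos, Fosb, Junb, Atf3, Batf and Maff (6 of 9 genes), against 20.8% of all windows. Fos held it at 129 to 125 and at 66 to 62 bases before the start, and Fosl2 held none of the motifs searched. The member counts are by gene and the shares by window, and the 9 genes had 11 windows. GC content of the member windows ran from 46.7% (Jund) to 68.3% (Fosb), against a median of 52.7% over all windows, and was not matched. Longer or more distant sites were not searched, and these matches are letters in a window, not measured binding.

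The 7 arrays were not equally alike, and this bears on every gene below. Wild type replicates 1 and 3 correlated least with the other arrays, and with each other at r = 0.761 over probe sets. The SD of the values over all probe sets was 1.38 to 1.48 on the knockout arrays, against 1.72, 1.46 and 1.22 on wild type replicates 1, 2 and 3. Wild type replicate 1 alone was the highest or the lowest of the 7 arrays for 64.4% of all genes. Skin was present by its markers: 12 of 12 epidermal keratinocyte genes and 11 of 12 fibroblast genes had a mean above the median of all values, 3.60. Hair follicle keratin genes averaged 3.69 to 4.71 on the knockout arrays, against 8.17, 4.93 and 4.21 on wild type replicates 1, 2 and 3. Epidermal keratinocyte genes averaged 6.57 to 6.99 on the knockout arrays, against 7.95, 6.69 and 5.88, and fibroblast genes 5.81 to 6.27, against 6.59, 6.20 and 5.02. Skeletal muscle genes averaged 8.29 to 8.92 on the knockout arrays, against 8.27, 8.54 and 7.09. The difference between genotypes was above 0 in 14 of 16 muscle genes, against 51.7% of all genes. It was below 0 in 16 of 16 hair follicle, 8 of 12 epidermal and 6 of 12 fibroblast genes, against 48.2% of all genes. Tnfsf4 had means of 2.95 in the knockout arrays and 2.93 in the wild type arrays, with SDs of 0.27 (n = 4) and 0.63 (n = 3), and whether its probe set lies in the deleted part is not known here.

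No AP-1 gene passed the test between the genotypes. In limma over all 23185 genes, 0 of the 10 had an adjusted p under 0.05, against 0.00431% of all genes (1 gene), and 0 had an unadjusted p under 0.05, against 1.88% of all genes. Of the 10 differences, 7 were below 0 and 3 above it, with a median of -0.08 on the log2 scale, while 48.2% of all genes were below 0 and the median of all was 0.01. The genotypes did not overlap in 1 of the 10, Fosl2, which was lower on every knockout array, against 1.91% of all genes in either direction and 0.815% in that direction. Each of the 10 had an adjusted p of 0.9995 in limma. In whole skin, fewer cells of a type and less RNA per cell cannot be told apart.

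**Figure D1:**
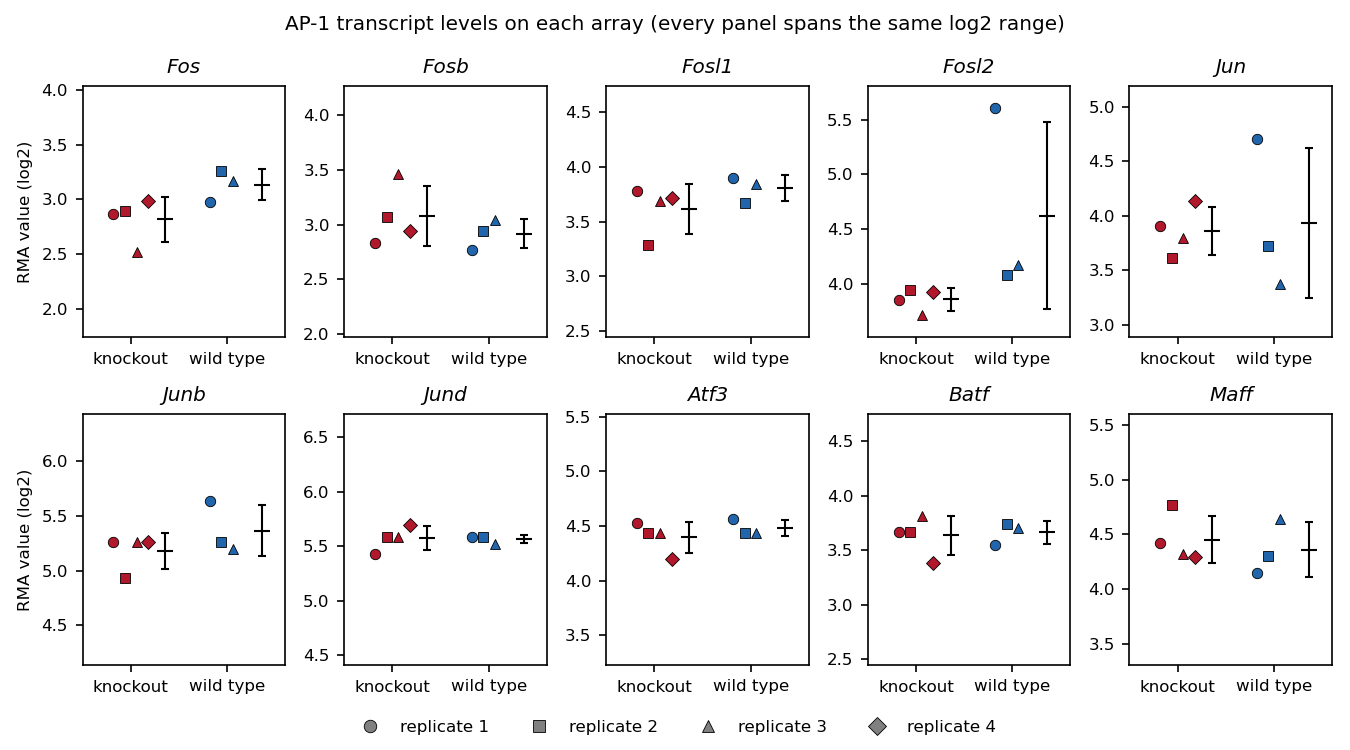
RMA values (log2, y axis) of the 10 AP-1 genes on the 4 knockout arrays (red, left) and the 3 wild type arrays (blue, right), with symbols for the replicate number and bars for the mean ± SD of each genotype. Every panel spans the same log2 range. In Fosl2 and Jun, wild type replicate 1 stands at 5.61 and 4.70, well above the other arrays.

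Fosl2, which encodes the Fos-related protein Fra-2, had the largest difference of the 10. Its log2 values were 3.85, 3.94, 3.71 and 3.92 in knockout, against 5.61, 4.08 and 4.17 in wild type. All knockout arrays were below all wild type arrays, but the gap between the closest arrays was small and wild type replicate 1 stood far above the rest. Knockout averaged 3.85 ± 0.10 (SD over 4 arrays) and wild type 4.62 ± 0.86 (SD over 3). The difference of -0.77 (SE 0.36) had a 95% confidence interval of -1.62 to 0.09, that is, a ratio of 0.588 with an interval of 0.325 to 1.06, and a limma adjusted p = 0.9995. A two-sided exact permutation test of the means gave p = 0.0286 for this gene alone, the smallest that the 35 splits of the arrays allow, which restates that the genotypes did not overlap and is not adjusted for the number of genes. Without wild type replicate 1 the difference was -0.27 and the genotypes still did not overlap, as for 7.84% of all genes in that comparison, and the adjusted p was 0.905. It was -1.04 without wild type replicate 2 and -0.99 without replicate 3. The hair follicle, epidermal keratinocyte and fibroblast lists were highest on the array where Fosl2 was highest, and their part in the difference was not tested.

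Fos, the founding member of its family, lay mostly lower in knockout by a smaller amount. It was at 2.87, 2.90, 2.52 and 2.99 in knockout, against 2.98, 3.26 and 3.16 in wild type. Knockout replicate 4 was just above wild type replicate 1, so the genotypes overlapped by that pair alone. Its difference of -0.32 (SE 0.16, interval -0.70 to 0.06) had a limma adjusted p = 0.9995 and an unadjusted exact permutation p = 0.0857. All 7 values were below the median of their own array, so the signal was dim. With each array left out in turn the Fos difference ran from -0.40 to -0.22, and its genotypes did not overlap without knockout replicate 4, as for 3.86% of all genes in that comparison, or without wild type replicate 1, as for 7.84%. The sample codes in the labels carry or lack a suffix of unstated meaning; the Fos difference was -0.14 among samples without it (2 knockout, 2 wild type) and -0.55 among those with it (2 knockout, 1 wild type). Those of Fosl2 were -1.01 and -0.26.

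The other Fos genes overlapped between genotypes. Fosb, whose product resembles Fos and which also gives the long-lived splice form known as delta FosB, was at 2.83, 3.07, 3.47 and 2.95 in knockout, against 2.77, 2.95 and 3.04 in wild type. Its difference of 0.16 (SE 0.18) was the largest above 0 among the 10, and knockout replicate 3 was its highest array and the lowest for Fos. Without knockout replicate 3 the Fosb difference was 0.032. Fosl1, which encodes Fra-1, a target of AP-1 itself, was at 3.78, 3.28, 3.69 and 3.71 in knockout, against 3.90, 3.67 and 3.85 in wild type. Knockout replicate 2 was its lowest array, and without it the difference moved to -0.08 from -0.19 (SE 0.17) over all arrays.

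Jun, the principal Jun protein and a target of JNK kinases, varied more between wild type arrays than between genotypes. It was at 3.90, 3.62, 3.80 and 4.14 in knockout, against 4.70, 3.72 and 3.38 in wild type, so that the wild type arrays were both the highest and the lowest. Its difference of -0.07 (SE 0.32, interval -0.81 to 0.67) leaves room for a ratio of 0.571 to 1.59. Its sign turned with the arrays used, to 0.31 without wild type replicate 1, and it was -0.35 without replicate 3. Junb, which can restrain Jun activity and is expressed in epidermis and T cells, was at 5.26, 4.93, 5.26 and 5.26 in knockout, against 5.64, 5.26 and 5.20 in wild type. Its difference of -0.19 (SE 0.17) was -0.05 without wild type replicate 1. Jund, the Jun gene expressed most steadily in many tissues, was at 5.43, 5.59, 5.59 and 5.69 in knockout, against 5.59, 5.59 and 5.52 in wild type. It was the steadiest of the 10, with an SD of 0.080 over all 7 arrays, at percentile 2.85 of the SDs of all genes, and its interval allowed ratios from 0.821 to 1.24.

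**Figure D2:**
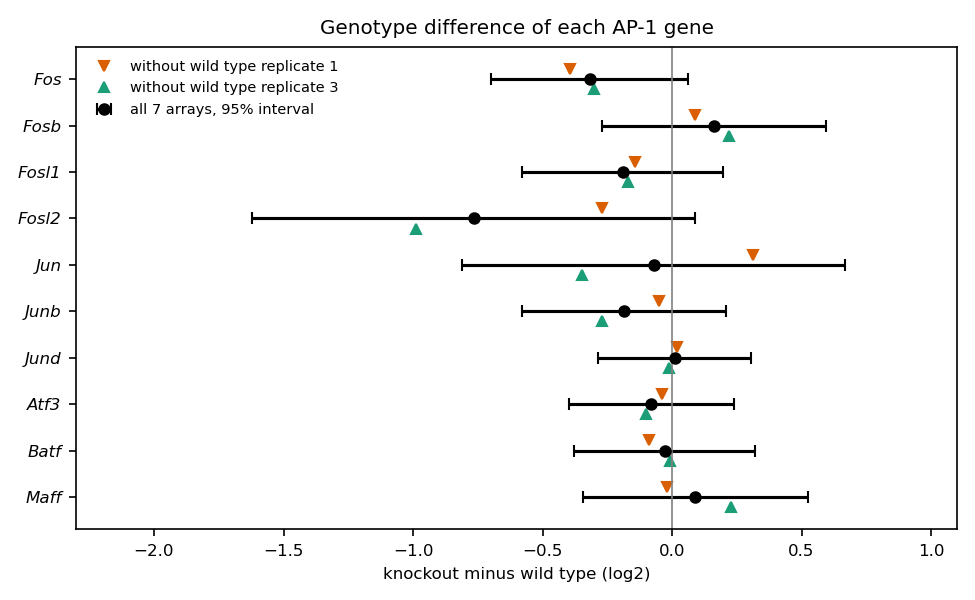
Knockout minus wild type differences (log2, x axis) of the 10 AP-1 genes, as black points with 95% confidence intervals from limma over all 7 arrays, and as triangles without wild type replicate 1 or 3. Every interval includes 0, and the triangles lie farthest apart for Fosl2 (-0.27 and -0.99) and Jun (0.31 and -0.35).

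Atf3, Batf and Maff showed small differences of either sign. Atf3, a stress-induced factor that often represses its targets, was at 4.52, 4.44, 4.44 and 4.19 in knockout, against 4.56, 4.44 and 4.44 in wild type, a difference of -0.08 (SE 0.14). Batf, a partner of Jun and IRF proteins in T cell differentiation, was at 3.67, 3.67, 3.81 and 3.39 in knockout, against 3.55, 3.74 and 3.71 in wild type, a difference of -0.03 (SE 0.15). Their intervals allowed ratios of 0.758 to 1.18 for Atf3 and 0.769 to 1.25 for Batf. Maff, a small Maf protein induced by stress and inflammation, was at 4.42, 4.77, 4.32 and 4.30 in knockout, against 4.14, 4.30 and 4.64 in wild type, a difference of 0.09 (SE 0.19). In all 3 genes the genotypes overlapped, and the sign of the Batf and Maff differences turned when some single arrays were left out.

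Several of these values were exactly equal between arrays, which the median polish used by RMA can produce. Junb, Jund and Atf3 each had 1 value shared by 4 arrays, and 2328 of the 23185 genes had a value shared by 4 or more. In each of the 3 the shared value stood in both genotypes, at 5.26 for Junb, 5.59 for Jund and 4.44 for Atf3. The number of distinct values limits what these genes can show.

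The members did not move as a block across arrays. Wild type replicate 1 was the highest array for 5 of the 10 (Fosl1, Fosl2, Jun, Junb and Atf3) and the lowest for 2 (Fosb and Maff), against 25.3% and 39.1% of all genes. In Fosl2 it stood 1.43 above the gene's mean over the 7 arrays and in Jun 0.81 above it. Wild type replicate 3 was the lowest array for Jun alone, at -0.51 from its mean. On wild type replicate 2, the wild type array most like the knockout arrays, Fos was 0.31 above its mean, and the next farthest, Jun, was at -0.17 from its own. The mean log2 value over the 10 genes was 4.02 to 4.06 on the knockout arrays, against 4.34, 4.10 and 4.11 on the wild type arrays. Leaving out Fosl2, a choice made after its values were seen, the means were 4.03 to 4.10 in knockout, against 4.20, 4.10 and 4.10 in wild type.

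**Figure D3:**
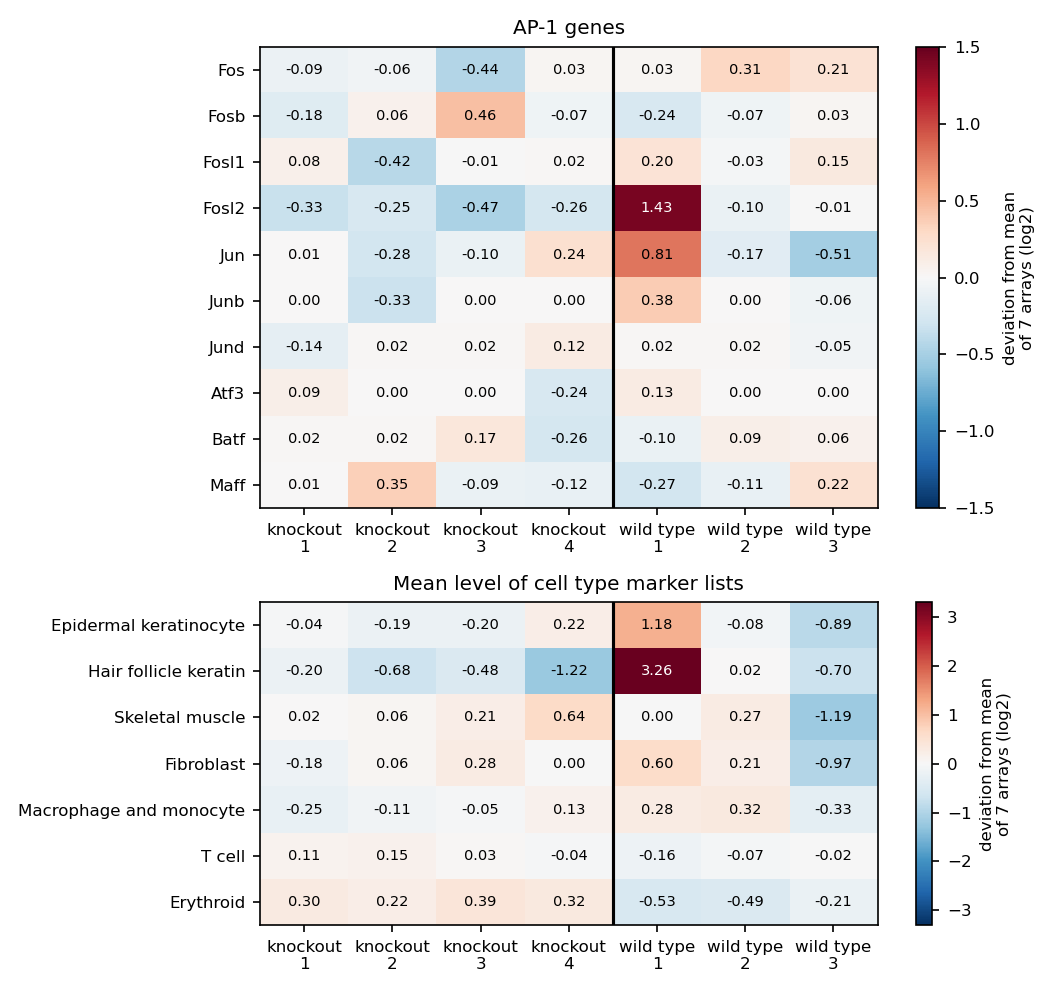
Deviation of each AP-1 gene (upper panel) and of the mean level of 7 cell type marker lists (lower panel) from its mean over the 7 arrays (log2, colour and printed value), with knockout arrays left of the line. Fosl2 (1.43), Jun (0.81) and the hair follicle list (3.26) are highest on wild type replicate 1.

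Genes that act with, before or after AP-1 were read from lists written by hand with earlier results of these data known. None of their measured members passed limma's adjusted threshold, and the counts that follow are of signs. Other bZIP genes that can pair with Fos or Jun proteins, or resemble them, were lower in knockout in 12 of 21, with a median of -0.10. Without wild type replicate 1 the count was 11 of 21 (median -0.014), against 53.7% of all genes. Without wild type replicate 3 it was 14 of 21 (median -0.23), against 40.9%. Creb1, which binds cyclic AMP response elements such as those of Fos, was at 5.32 to 5.66 in knockout, against 6.51, 5.83 and 5.66 in wild type. Its genotypes did not overlap, by a margin of under 0.01, as for 1 of the 21 listed genes and 0.815% of all genes in that direction. Its difference was -0.51 (SE 0.22, limma adjusted p = 0.9995), or -0.25 without wild type replicate 1. Atf2, a partner of Jun, differed by -0.23 (SE 0.15), Nfe2l3 by -0.27 (SE 0.19) and Mafk, a small Maf like Maff, by 0.33 (SE 0.25).

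The MAP kinase cascade, which phosphorylates Jun and induces Fos through ternary complex factors, was lower in 23 of 33 measured genes, with a median of -0.12. Map3k5 (ASK1), a stress-activated kinase, differed by -0.70 (SE 0.37), Map3k1 (MEKK1) by -0.51 (SE 0.27), Map2k5 by -0.44 (SE 0.25) and Map2k3, which activates p38, by -0.43 (SE 0.29). All 4 were highest on wild type replicate 1. Genes listed as feedback inhibitors were lower in 19 of 25, with a median of -0.10. Some of them dephosphorylate the kinases or shorten the life of AP-1 transcripts and proteins, and others on the list act in other ways. Zfp36l1, which promotes decay of AU-rich transcripts, differed by -0.83 (SE 0.43) and Fbxw7, a ubiquitin ligase subunit that targets Jun, by -0.61 (SE 0.32). Dusp6, an ERK phosphatase, differed by -0.60 (SE 0.56) and Sik1, a kinase of the CREB pathway, by -0.25 (SE 0.16). These 4 genes were also highest on wild type replicate 1. Dusp6 was at 4.12 to 4.33 in knockout, against 6.40, 4.33 and 3.82 in wild type. The counts turned round without wild type replicate 1. They were 13 of 33 lower for the kinase list (median 0.076) and 7 of 25 for the inhibitor list (median 0.16). In that comparison 7 of the 10 AP-1 genes were lower (median -0.05), as were 53.7% of all genes (median -0.02). These were not the same 7 as over all arrays, since Jun was at 0.31 and Maff at -0.019. Without wild type replicate 3 instead, 25 of 33 genes of the kinase list were lower (median -0.29). In the inhibitor list 21 of 25 were lower (median -0.31). So were 8 of the 10 AP-1 genes (median -0.14) and 40.9% of all genes (median 0.08).

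Textbook AP-1 target genes were lower in 22 of 36, with a median of -0.08. They were lower in 17 of 36 without wild type replicate 1 and in 24 of 36 without wild type replicate 3. Ereg, which encodes epiregulin, an EGF receptor ligand of epidermis, had the smallest p of the genes on these lists. It was at 3.64, 3.77, 3.77 and 3.57 in knockout, against 4.50, 4.24 and 4.17 in wild type. All knockout arrays were below all wild type arrays, as for 2 of the 36 listed targets and 0.815% of all genes. The 3 wild type arrays lay close together. Its difference of -0.62 (SE 0.14, interval -0.95 to -0.28) had a limma adjusted p = 0.9995, and it ran from -0.68 to -0.52 as each array was left out. Cxcl2, a neutrophil-attracting chemokine, was at 4.41 to 4.83 in knockout, against 4.88, 4.85 and 5.58 in wild type, a difference of -0.42 (SE 0.22) that was -0.19 without wild type replicate 3. Cdkn2a, a cell cycle inhibitor, differed by 0.33 (SE 0.18) and Il2, the T cell growth factor, by 0.38 (SE 0.21). Ereg was the 1 gene of the 36 with an unadjusted limma p under 0.05, against 1.88% of all genes.

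Genes of the T cell programme in which BATF acts with IRF4 were lower in 8 of 19, with a median of 0.01. They were lower in 9 of 19 without wild type replicate 1 and in 5 of 19 (median 0.13) without wild type replicate 3. Ikzf2 (Helios), a factor of regulatory T cells, differed by 0.51 (SE 0.23) and Il23r by 0.52 (SE 0.28). Il13, a type 2 cytokine, differed by 0.26 (SE 0.27) and Prdm1 (Blimp-1) by -0.50 (SE 0.42). Prdm1 was at 3.82 to 3.98 in knockout, against 5.56, 3.69 and 4.02 in wild type. Il23r was dim, at 2.14 to 3.17 in knockout, against 1.86, 2.36 and 2.40. Of the 19 genes, 6 had a mean above the median of all values. T cell markers averaged 3.89 to 4.08 on the knockout arrays, against 3.77 to 3.91 on the wild type arrays, and 4 of 10 had a mean above the median of all values. Batf itself did not separate the genotypes.

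**Figure D4:**
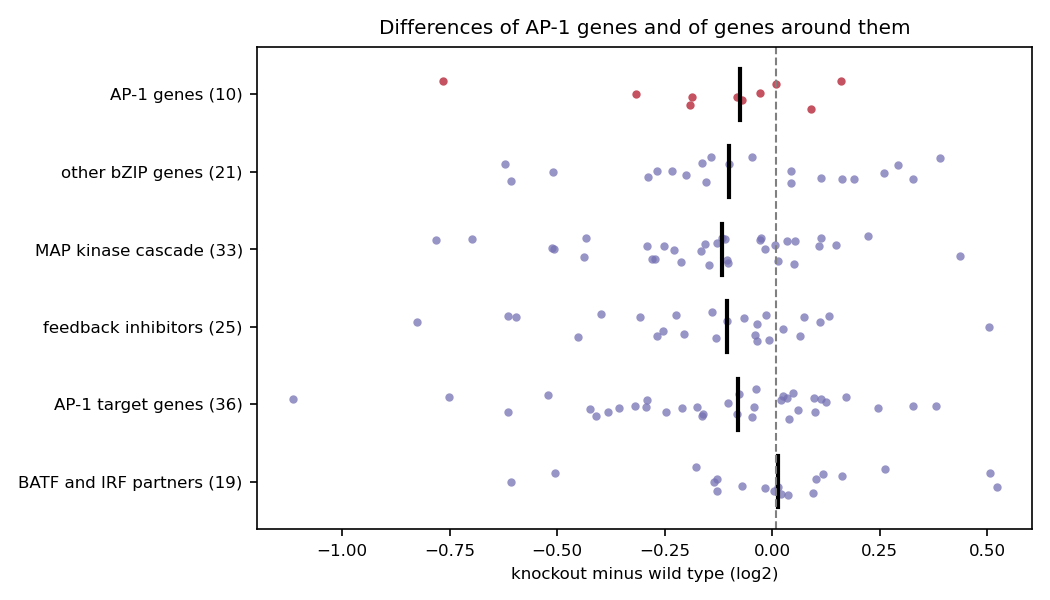
Knockout minus wild type differences (log2, x axis) of the AP-1 genes and of 5 lists of genes around them, 1 point a gene with the number of genes in brackets; black bars are list medians and the dashed line is the median of all genes (0.01). The list medians lie between -0.12 and 0.01.

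By likeness of pattern, measured as the root mean square difference of mean-centred log2 values over the 7 arrays, the 5 genes nearest to Fos among 18334 were Thoc2l (0.074), Frk (0.079), Fbxw17 (0.093), Csrnp2 (0.094) and Mettl9 (0.10). These differences were 0.33 to 0.46 of the root mean square deviation of Fos from its own mean. The likeness follows from choosing the genes by pattern and is no separate result. None of the 5 was on the lists used here.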

How the data were processed

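Values were the log2 expression values that the authors deposited, made with RMA (background correction, normalization and probe summary of Affymetrix arrays) according to the labels, per the submitters' processing notes; its version, probe-set definition and build: not given in the sources used here. Array medians still ranged from 3.45 to 3.74, and values were not normalized again in the main comparison. Symbols of all 23185 named probe sets (of 25206) were updated through a RefSeq table (GRCm38.p6). Samples were grouped by the genotype in their titles. The genotype test used limma 3.58.1 under R 4.3.3 (lmFit and eBayes, 4 knockout and 3 wild type arrays, two-sided, Benjamini-Hochberg adjustment over all 23185 genes at 0.05). Differences are knockout minus wild type. Known differences placed in simulated data were used to test the fit. The simulated noise was independent, with the same SD for a gene on every array. It did not include arrays that stood apart, as some wild type arrays did here. Precision is limited by the number of arrays.

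The text names all 10 AP-1 genes, up to 4 genes with the smallest p per pathway list, Tnfsf4, and the 5 genes nearest to Fos. Predicted genes, olfactory and vomeronasal receptors and small RNAs were left out of that search. Members and lists were chosen with earlier results of these data known. Listed genes without a value were not analysed here. The alternatives tried are given in the closing section. Figures were drawn with matplotlib 3.10.9 and promoter windows were searched in Python 3.11.15.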

Additional observations from a re-analysis of the deposited data

Results flagged for a closer look

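Junb had a value of 4.935 on knockout replicate 2, while the other 3 knockout arrays shared exactly the same value, 5.26, so the gap made up the whole range of the group (Dixon's ratio 1.0). The tie alone fixes that ratio and the limit assumes values without ties, so it does not show that this array stood apart. The 10 AP-1 genes were each examined in the 4 knockout arrays and this was the 1 value past the 95% limit; chance gives about 1 in 20 groups. The wild type group of 3 is too small for this rule. Without knockout replicate 2 the Junb difference was -0.11, against -0.19 over all arrays.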

How the results depend on the processing

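Of 187 values of the 10 AP-1 genes over 19 alternatives, 169 kept their direction and their side of the threshold, and 17 changed sign, in Jun, Jund, Batf and Maff. The remaining 1 was Fos with array weights, at -0.45 with a limma adjusted p of 0.0146, where 1 AP-1 gene and 4032 genes in all passed; those weights were 75.4 for wild type replicate 2, against 0.106 and 0.109 for replicates 1 and 3, and the estimate of the weights did not converge. Ereg and Creb1 also passed with those weights. The Jun difference was 0.051 after quantile normalization, 0.12 with array weights, 0.072 with the SD of each array as a covariate and 0.14 without wild type replicates 1 and 3 together, where the lone wild type array is assumed to vary like the knockout arrays. That of Jund was -0.0035 after centring on array medians, -0.013 with array weights and -0.011 without wild type replicates 1 and 3. With the replicate number as a block, Jund was at -0.030, Batf at 0.054 and Fosl2 at -0.79, and no AP-1 gene passed. With the code number as a random block (fitted correlation within a number 0.18), Fos was at -0.35 and Fosl2 at -0.73, and no AP-1 gene passed. Deviations from the group means correlated at -0.086, -0.15 and 0.034 between knockout and wild type arrays of replicate number 1, 2 and 3. Between arrays of unlike replicate number they ran from -0.36 to 0.27, so these correlations cannot show whether the numbers pair the samples. With single arrays left out, the differences ran from -0.35 to 0.31 for Jun, from -0.030 to 0.058 for Jund, from -0.088 to 0.054 for Batf and from -0.019 to 0.23 for Maff. The median over the 10 ran from -0.14 to -0.046 and was -0.027 after quantile normalization. The cause of these changes was not tested.

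The 1 gene that passed among all 23185, which is no AP-1 gene, was not called (0 genes) with an intensity trend and robust moderation, after quantile normalization or centring, over all probe sets, with the replicate number or the code suffix as a block, with the array SD as a covariate, without wild type replicates 1 and 3, or without any single array (0 to 0). The number of AP-1 genes whose genotypes did not overlap was 1 to 2 with single arrays left out, where 3.09% to 21.4% of all genes did not overlap, and 2 without wild type replicates 1 and 3, where 37.5% of all genes did not overlap. Comparisons of the pathway lists without wild type replicate 1 or 3, and the alternatives for Ereg, Cxcl2 and Creb1, were chosen after seeing the data. Fos was left out by both filters on dim genes (30% and 50%), and Fosb by the second, so they give no value there. Signal limits Fos and Fosb most, since both lay below the median of every array.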

Other observations

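Wild type replicate 1 was the highest array for 25.3% of all genes. The genes nearest in pattern to Fosl2 and to Jun, chosen after values were seen, shared the high value there. That follows from choosing them by pattern and is no separate result. For Fosl2 these were Srm, which encodes spermidine synthase, Gosr2, Ddost, Septin11 and Thbs1, with root mean square differences of 0.082 to 0.10. Thbs1, the gene of thrombospondin-1, which can activate latent TGF-beta, was at 3.32, 3.38, 3.19 and 3.27 in knockout, against 4.88, 3.38 and 3.75 in wild type. For Jun they were Hsdl2, Bcl2l1, Ddx24, Ston2 and Hook1, at 0.061 to 0.076. Bcl2l1, which encodes the survival protein Bcl-xL, was at 4.90, 4.63, 4.85 and 5.04 in knockout, against 5.59, 4.79 and 4.39 in wild type.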
